A study of Mus musculus with 6 samples.

Results

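Matricellular proteins are secreted into the matrix around a cell, where they mainly act as signals rather than as load-bearing structure: they bind integrins, proteoglycans, growth factors and collagen, and they change how a cell adheres, spreads and responds to its surroundings. In bone marrow, such proteins are made largely by stromal cells, which form the bed on which lymphoid and myeloid progenitors grow. Several of their genes, among them Ccn1, Ccn2, Thbs1, Tnc and Postn, are known to respond to TGF-beta, to serum or to the mechanical state of a cell in other systems.

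The genes described are periostin (Postn) and its relative Tgfbi, the thrombospondins Thbs1 and Thbs2, tenascin C (Tnc), Sparc, the CCN proteins Ccn1, Ccn2 and Ccn3, and fibronectin (Fn1). They were taken by symbol or synonym from the platform annotation, which lists Ccn1, Ccn2 and Ccn3 as Cyr61, Ctgf and Nov. By RefSeq (GRCm38.p6), Postn and Ccn1 lie on chromosome 3, Fn1 on 1, Thbs1 on 2, Tnc on 4, Ccn2 on 10, Sparc on 11, Tgfbi on 13, Ccn3 on 15 and Thbs2 on 17. All 10 genes were measured, out of 16871 genes tested, and they held 237 of the 318760 probe sets that carry a single gene symbol. The group was chosen by the gene level differences of this same comparison, in which Postn was among the lowest, so the differences of the 10 genes are given as a description, without a p-value, and nothing is inferred from them.

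The cells were OP9, stromal cells from mouse bone marrow that support lymphoid culture and that derive from mice lacking functional Csf1. Both groups carried a stably integrated pLKO.1-Puro lentiviral hairpin, either scrambled (control shRNA) or directed at Smoothened (Smo shRNA), the receptor-like protein that transmits Hedgehog signals into the cell. Each of the 2 lines gave 3 RNA samples, and each sample was hybridized to 1 Affymetrix Mouse Exon 1.0 ST array, so the data comprise 6 arrays. No label says that the samples of a line came from separate transductions or cultures. The spread therefore covers only these RNA samples, and a difference between the 2 lines cannot be told apart from the effect of the hairpin.

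Values are log2 hybridization intensities between 0 and 15.1. Gene values were built from probe sets, short exon stretches with a value each, with a mean over the arrays no lower than 6.56, the median over every probe set. Across genes, which are not independent replicates, the correlation was 0.996 to 0.998 between arrays of a line and 0.979 to 0.981 between lines. Smo itself was 1.83-fold lower in Smo shRNA cells (log2 difference -0.88, SE 0.04, limma adjusted p = 1.13e-09). Of 8 stromal markers tested, 6 were lower and 0 higher, with differences from -0.72 to 0.12. Over all genes, 17.4% were lower and 21.3% higher. No marker of macrophages (6 tested), endothelial cells (5) or epithelial cells (4) passed in either direction, with gene values between 7.29 and 9.60 over the 3 lists. Of 3 B lineage markers, Ebf1, which stromal cells also express, was the only one that passed (-0.11, SE 0.03, limma adjusted p = 0.0162). The part of these markers in the differences described here was not tested. In RNA from a whole culture, fewer cells expressing a gene and less RNA per cell cannot be told apart.

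RefSeq start sites (GRCm38.p6) were on hand for 6 of the 10 genes: Postn, Tgfbi, Thbs2, Tnc, Sparc and Ccn1. The 250 bases before each start are where a core promoter lies, and they were searched on both strands for sequences recognised by factors that are known to act on matrix genes. The first pair below is shown because Postn carries the largest difference of the 10 and Ccn1 is a classical target of Yap and Tead. The capitals mark a match to GGAATG, the Tead motif, read on either strand.
Postn, chr3:54360857-54361106, plus strand: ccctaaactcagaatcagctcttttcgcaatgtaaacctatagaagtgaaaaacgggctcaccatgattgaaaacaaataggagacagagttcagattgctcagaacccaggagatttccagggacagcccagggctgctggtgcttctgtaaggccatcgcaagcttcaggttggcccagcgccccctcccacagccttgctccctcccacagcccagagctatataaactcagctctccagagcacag
Ccn1, chr3:145649986-145650235, minus strand: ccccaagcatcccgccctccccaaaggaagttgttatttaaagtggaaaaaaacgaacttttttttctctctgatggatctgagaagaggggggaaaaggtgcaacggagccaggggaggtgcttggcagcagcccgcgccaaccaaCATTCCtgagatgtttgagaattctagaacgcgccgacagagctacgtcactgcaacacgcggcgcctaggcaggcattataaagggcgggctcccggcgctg
The Ccn1 window holds the Tead motif once, beginning 103 bases before the start, and 12.6% of 32851 windows of the same length over all genes hold it. The Postn window printed holds no match to any of the 5 motifs searched. The others were CAGAC (Smad, in 42.2% of all windows), TGAGTCA (AP-1, 4.46%), GACCACCCA (Gli, the factors at the end of the Hedgehog pathway, 0.225%) and the CArG box of serum response factor (1.47%). CAGAC, the short Smad element, was found in a window of Tgfbi, Thbs2, Tnc and Sparc and at a second, upstream Postn start. Thbs2 held it at 66 and 43 bases before its start, as shown here in capitals, read on the opposite strand.
Thbs2, chr17:14694263-14694512, minus strand: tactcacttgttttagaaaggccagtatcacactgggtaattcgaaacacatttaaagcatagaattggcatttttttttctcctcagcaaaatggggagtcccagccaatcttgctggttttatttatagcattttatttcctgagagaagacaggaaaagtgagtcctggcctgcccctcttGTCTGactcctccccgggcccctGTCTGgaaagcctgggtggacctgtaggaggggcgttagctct
These matches describe the letters of each window and are not evidence of a bound factor.

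Over the 10 genes, 5 were lower in Smo shRNA cells, 2 were higher and 3 did not pass the threshold of an adjusted p under 0.05. The same fit called 38.6% of all genes, 17.4% as lower and 21.3% as higher. The balance of directions over all genes depends on the scaling, with 3586 higher and 2932 lower as fitted and 3128 higher and 3601 lower with each array centred on its median. The lower genes were Postn, Thbs1, Thbs2, Ccn1 and Ccn3, the higher ones Tnc and Ccn2. The median difference was -0.15 for the 10 genes and 0.01 for all genes. No call of these 10 genes changed without any 1 of the 6 arrays. The array values of 7 of the 10 genes did not overlap between the lines, which held for 47.8% of all genes. These are the 7 genes that passed on the same arrays, so the lack of overlap adds no support.

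**Figure D1:**
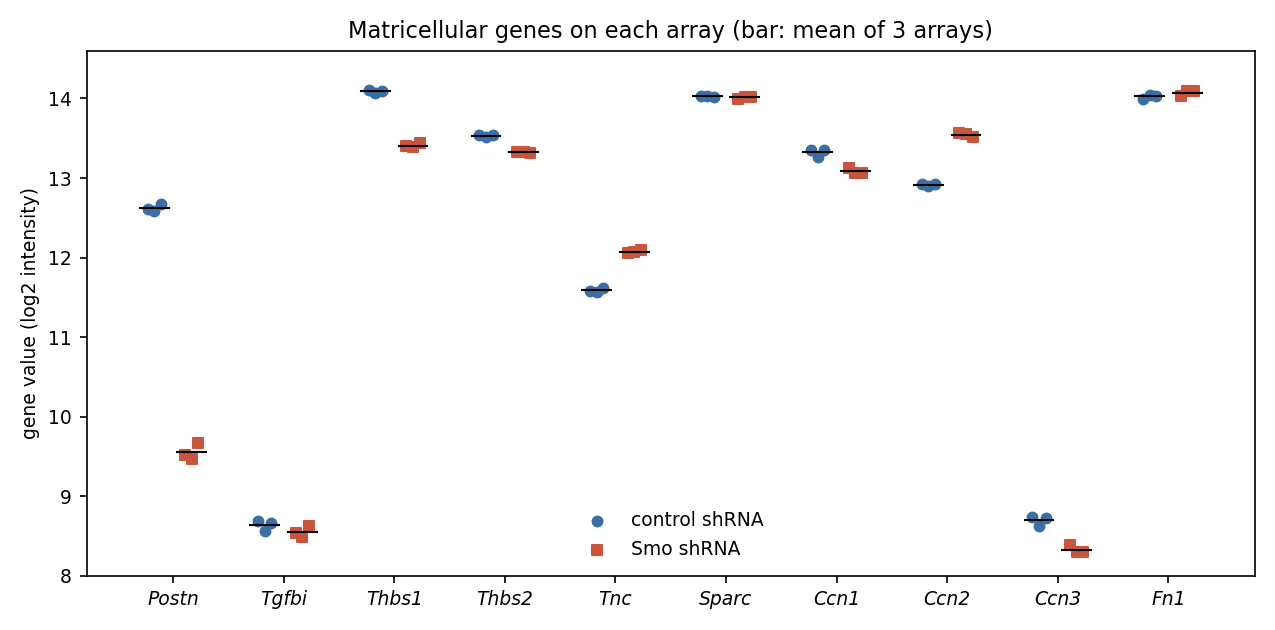
Gene value (log2 intensity, vertical axis) of the 10 matricellular genes on each array; circles are the 3 control shRNA arrays, squares the 3 Smo shRNA arrays and bars the mean of 3. Postn lies near 12.62 in control and 9.55 in Smo shRNA cells, while the values of Tgfbi, Sparc and Fn1 overlap; levels of different genes are not comparable, since their probes differ.

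Postn encodes periostin, a secreted protein of fasciclin repeats that binds integrins and collagen and helps to recruit the enzymes that mature and cross-link collagen. Its gene value was 12.60, 12.59 and 12.68 on the control arrays and 9.52, 9.47 and 9.66 on the Smo shRNA arrays. Every Smo shRNA array was therefore far below every control array, and the SD within a line was 0.05 in control and 0.10 in Smo shRNA cells (n = 3 each). The log2 difference was -3.07 (SE 0.05), or 8.41-fold lower, the third lowest of the 16871 genes. This value and rank pool 31 probe sets, of which 7 read below 6.56 in Smo shRNA cells. Those 7 had a median difference of -3.97, and a gene value without them is not given.

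Of the 33 Postn probe sets, 31 were kept, and all 31 passed as lower, where 12.4% of all kept probe sets did (30.0% passed in either direction). Of these, 7 read below 6.56 in Smo shRNA cells and were kept only through their control level, so their count is no support. The other 24, at or above 6.56 in both lines, passed as lower with differences from -3.83 to -0.65 and a median of -2.94. Postn was chosen by its difference on these same arrays, so this count is no support either. The remaining pair, too dim to be kept, was lower as well, at -0.80 and -1.34. The smallest kept difference belonged to the probe set with the lowest control level, which went from 8.08 ± 0.30 to 7.43 ± 0.13 (SD, n = 3). Brighter probe sets otherwise differed less: Spearman's rho between control level and difference was 0.66 over the 24 probe sets, which share the same arrays, and the control mean enters both quantities.

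Part of the Postn probe sets stand in the annotation under an older symbol, A630052E07Rik, which RefSeq lists as a synonym of Postn. Of 7 such probe sets 5 were kept, on the strength of their control levels of 8.87 to 9.69. In Smo shRNA cells all 5 read below the median of all probe sets, at 5.40 to 6.13. With only the 26 probe sets under the symbol Postn, the gene difference was -2.97 (SE 0.04), or 7.81-fold. This value still holds 2 probe sets that read below 6.56 in Smo shRNA cells. A size for the older symbol alone is not given, because its values in Smo shRNA cells lie below the filter.

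Tgfbi encodes the nearest relative of periostin, with the same fasciclin repeats and integrin binding. It read 8.68, 8.56 and 8.66 on the control arrays and 8.53, 8.49 and 8.62 on the Smo shRNA arrays. The values of the lines overlapped, and the difference of -0.09 (SE 0.07) did not pass. None of its 18 kept probe sets passed, and their differences ran from -0.32 to 0.17. Side by side, the relatives differed between the lines by -3.07 (Postn) and -0.09 (Tgfbi). Tgfbi was dim, at 8.64 in control and 8.55 in Smo shRNA cells. That is within the 7.29 to 9.60 of the macrophage, endothelial and epithelial markers. The pair of values does not show that the relatives behaved differently.

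**Figure D2:**
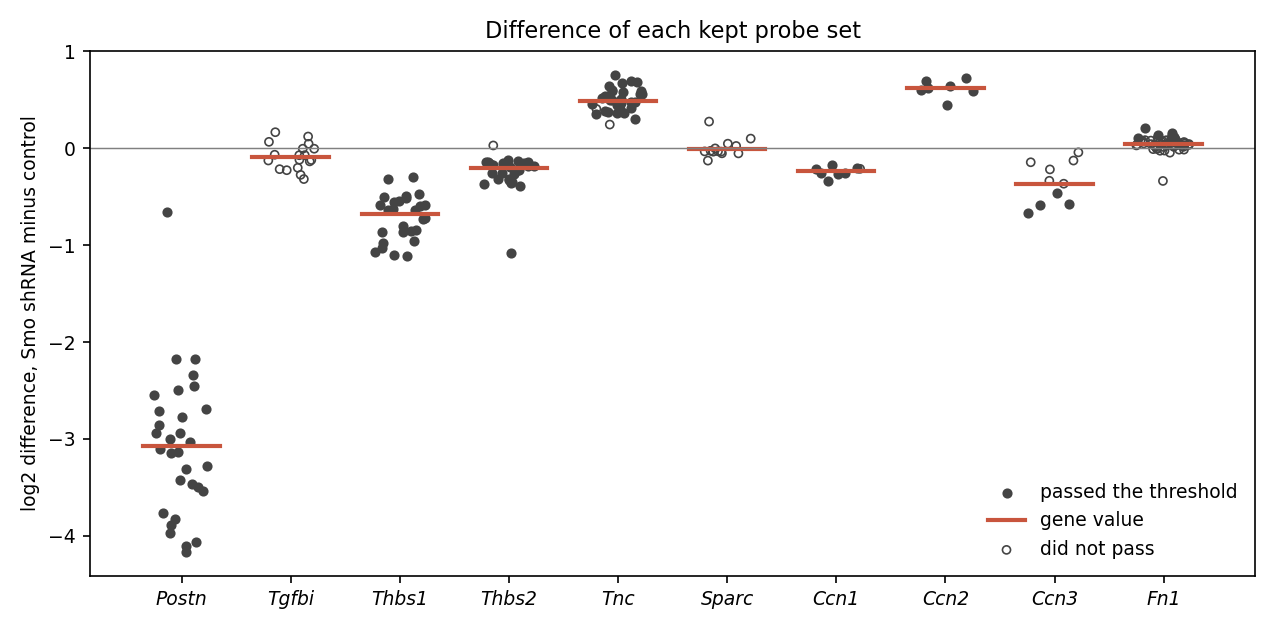
Log2 difference, Smo shRNA minus control shRNA (vertical axis), of every kept probe set of the 10 genes; filled points passed the threshold, open points did not, and the line is the gene value. All 31 Postn points lie below 0, though 7 of them read below 6.56 in Smo shRNA cells. All 27 Thbs1 points lie between -1.11 and -0.30, and all 7 Ccn2 points lie between 0.45 and 0.73.

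Thbs1 encodes thrombospondin 1, a trimeric glycoprotein that activates latent TGF-beta and binds CD36 and CD47. It read 14.10, 14.07 and 14.09 on the control arrays and 13.40, 13.38 and 13.44 on the Smo shRNA arrays. The lines were clearly separate, with SDs of 0.02 and 0.03 (n = 3 each). The difference was -0.68 (SE 0.02), or 1.60-fold lower. All 27 probe sets passed as lower, from -1.11 to -0.30, where 12.4% of all kept probe sets did. The brighter ones again differed less (rho 0.77 over the 27, on the same arrays).

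Thbs2 encodes thrombospondin 2, which binds the same receptors and is known to hold back vessel growth, but does not activate TGF-beta. It read 13.54, 13.52 and 13.54 on the control arrays and 13.33, 13.33 and 13.32 on the Smo shRNA arrays. The gap was small but wider than the spread, with a difference of -0.21 (SE 0.02), or 1.16-fold lower. Of its 28 probe sets, 27 passed as lower, where 12.4% of all kept probe sets did. Where the variance was modelled without a trend on level, 11 of the 28 passed as lower. A single probe set stood out at -1.08 (SE 0.15), from 9.66 ± 0.21 to 8.58 ± 0.24 (SD, n = 3), and it had the lowest control level of the 28. The only one above 0 was the next dimmest, at 0.03 (SE 0.09).

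**Figure D3:**
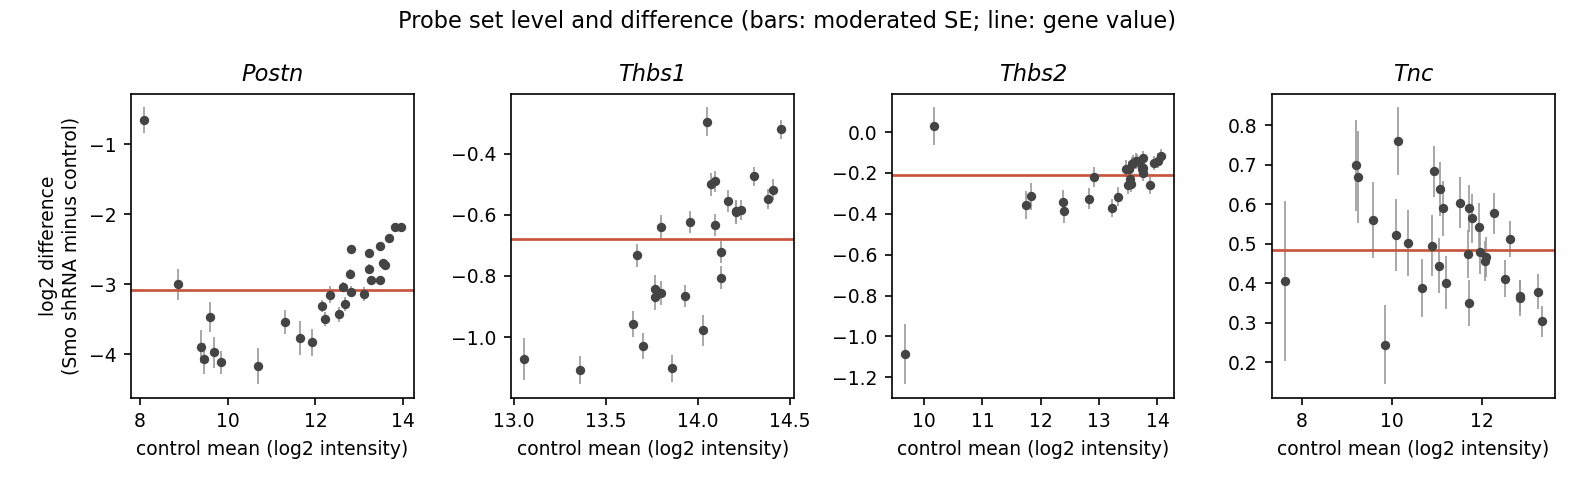
Mean level of each kept probe set on the control arrays (horizontal axis, log2 intensity) against its log2 difference, Smo shRNA minus control shRNA (vertical axis), for Postn, Thbs1, Thbs2 and Tnc; bars are moderated SE, the line is the gene value, and each panel has its own scale. In Postn and Thbs1 the brightest probe sets show the smaller decreases, and in Tnc the smaller increases.

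Tnc encodes tenascin C, a hexameric glycoprotein of remodelling tissue that weakens adhesion to fibronectin. It read 11.58, 11.56 and 11.62 on the control arrays and 12.06, 12.06 and 12.09 on the Smo shRNA arrays. It was thus higher on every Smo shRNA array, by 0.48 (SE 0.03), or 1.40-fold. All of its 31 kept probe sets were higher, between 0.24 and 0.76, and 29 of them passed, where 17.5% of all kept probe sets passed as higher. The largest increase was that of a probe set going from 10.14 ± 0.11 to 10.90 ± 0.01 (SD, n = 3).

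Sparc, also called osteonectin, encodes a collagen-binding protein abundant in bone. It read 14.03, 14.03 and 14.02 on the control arrays and 14.00, 14.02 and 14.02 on the Smo shRNA arrays. The values overlapped, the difference was -0.01 (SE 0.02), and none of its 13 probe sets passed. The sign of so small a difference is not settled, since the mean of the probe sets gave 0.00 on the positive side.

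The CCN proteins are modular secreted proteins that bind integrins and heparan sulphate, and Ccn1 and Ccn2 are immediate early genes and targets of Yap. Ccn2, connective tissue growth factor, read 12.93, 12.90 and 12.92 on the control arrays and 13.56, 13.55 and 13.51 on the Smo shRNA arrays. It was higher on every Smo shRNA array by 0.62 (SE 0.02), or 1.54-fold. All 7 probe sets passed as higher, from 0.45 to 0.73, where 17.5% of all kept probe sets did.

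Ccn1 went the other way. It read 13.35, 13.26 and 13.35 on the control arrays and 13.12, 13.07 and 13.07 on the Smo shRNA arrays. Its difference was -0.23 (SE 0.03), or 1.18-fold lower, and 7 of its 8 probe sets passed as lower (3 without the variance trend), from -0.33 to -0.17. Over all kept probe sets, 12.4% passed as lower. The 2 genes thus passed in opposite directions, and their probe set differences do not overlap.

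Ccn3, whose product is known to oppose Ccn2 in several cell types, read 8.74, 8.62 and 8.73 on the control arrays and 8.39, 8.30 and 8.30 on the Smo shRNA arrays. Every Smo shRNA array was below every control array, with a log2 difference of -0.37 (SE 0.07), or 1.29-fold lower. Its probe sets gave a less even picture. All 10 kept probe sets were lower, from -0.67 to -0.04, but only 4 passed (2 without control replicate 1). Over all kept probe sets, 12.4% passed as lower.

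Fn1 encodes fibronectin, the fibrillar glycoprotein to which tenascin C, periostin and several integrins bind. It read 14.00, 14.05 and 14.03 on the control arrays and 14.03, 14.10 and 14.09 on the Smo shRNA arrays. The values overlapped and the difference of 0.05 (SE 0.02) did not pass. Of its 57 probe sets, which share the same arrays, 48 were above 0 and 9 below. Of the 57, 6 passed as higher, with differences from 0.10 to 0.20, where 17.5% of all kept probe sets did. The count of 6 is no result about Fn1. That count was 16 without Smo shRNA replicate 1, 1 without control replicate 1 and 3 without any other array, 1 with each array centred on its median and 0 without the variance trend. The lowest probe set, at -0.34 (SE 0.18), was also the dimmest and varied most on the control arrays (10.55 ± 0.47, SD, n = 3).

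Other genes of the same families were taken by name, though with earlier results of these data known. The p-values of this and the following lists are therefore a description. Of the 19 family genes, 18 could be tested, 5 were lower and 1 was higher. That is 33.3% called, against 38.6% of all genes, so the share is no result about the families. Apart from Itga8, every gene of these and the following lists that is named as higher or lower had a limma adjusted p of at most 0.000883 (that of Loxl3). Their median difference was -0.03. Smoc1, a calcium-binding relative of Sparc that is known to restrain BMP signalling, was 3.03-fold lower, from 12.34 ± 0.05 to 10.74 ± 0.06 (SD, n = 3, log2 difference -1.60, SE 0.04, limma adjusted p = 1.3e-11). Ccn5, which lacks the C-terminal module of the other CCN proteins, was 2.26-fold lower, from 12.82 ± 0.07 to 11.64 ± 0.09 (SD, n = 3, log2 difference -1.17, SE 0.05, limma adjusted p = 4.13e-10). Sparcl1 (hevin) fell by 0.69 (SE 0.06) on the log2 scale, and Ccn4 fell by 0.48 (SE 0.03). Spp1, osteopontin, was the 1 higher gene, at 0.25 (SE 0.02), or 0.38 with the mean of probe sets. Stab2 (-0.16, SE 0.07) and Thbs3 (0.12, SE 0.07) came nearest to the threshold among the genes that did not pass.

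The counts by family include the 10 genes chosen by this comparison, so nothing is inferred from them. Over all genes, 17.4% were lower and 21.3% higher. Of 6 CCN genes, 4 were lower and 1 higher. Of the 5 thrombospondins, 2 were lower and 3 did not pass. Of the 4 tenascins, Tnc passed and 3 did not. In the Sparc family, 3 of 7 were lower while Sparc itself did not pass. Of the 4 genes with fasciclin repeats, Postn passed and 3 did not. The 12 added relatives that did not pass were dim, with gene values of 7.40 to 9.04. The counts do not show that these relatives behaved differently.

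**Figure D4:**
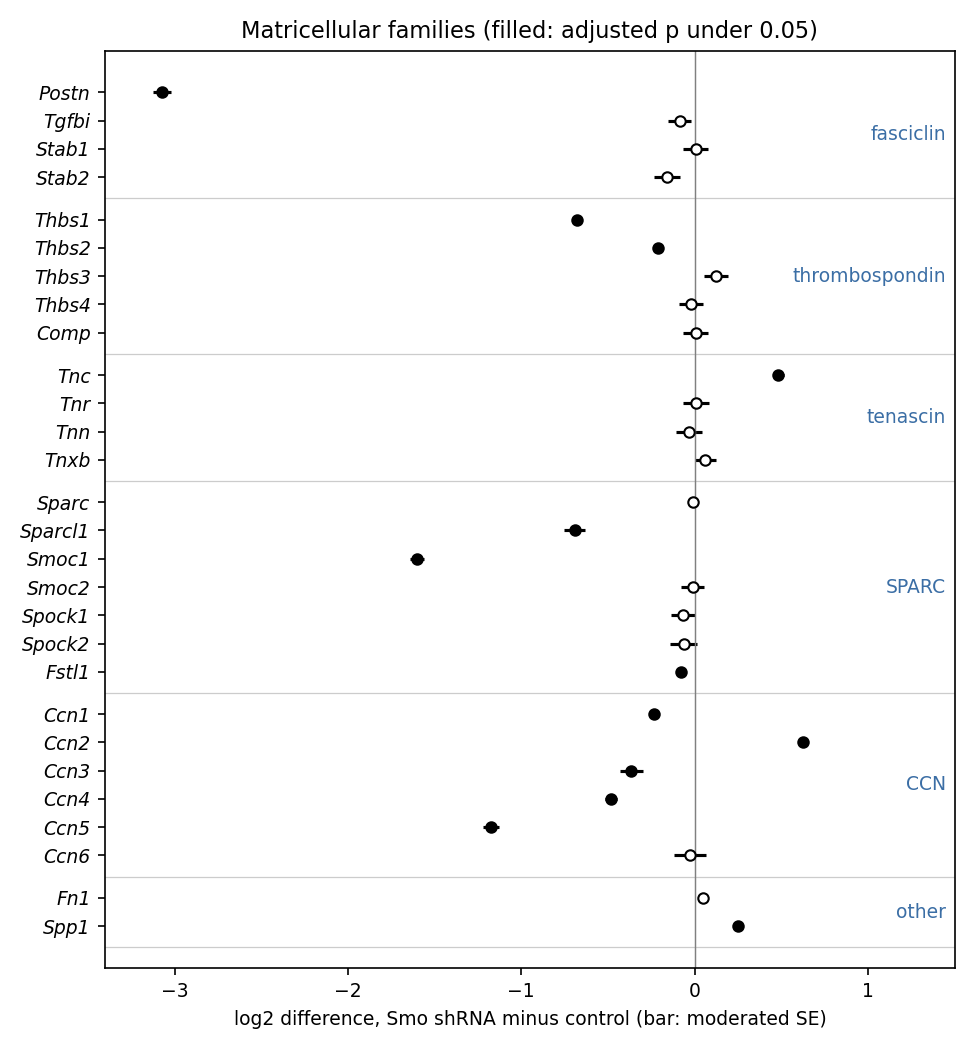
Log2 difference, Smo shRNA minus control shRNA (horizontal axis, bars are moderated SE), of the 10 matricellular genes and 18 other tested genes of their families; filled points have an adjusted p under 0.05. Postn, Smoc1 and Ccn5 lie farthest to the left at -3.07, -1.60 and -1.17, and Ccn2 and Tnc farthest to the right at 0.62 and 0.48.

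Of 22 receptor genes, integrin chains and other binding partners of these proteins, 9 were higher and 3 lower, with a median difference of 0.03. That is 54.5% called, against 38.6% of all genes. Cd36, a thrombospondin receptor and fatty acid transporter, was 2.89-fold lower (log2 difference -1.53, SE 0.06, limma adjusted p = 2.12e-10). Integrin chains passed in both directions, though Itga8 alone passed as lower. Itga8, a chain that binds tenascin C and fibronectin, was lower (-0.43, SE 0.09, limma adjusted p = 0.00159) and is named after its value was seen. It was dim, at 8.24 ± 0.15 in control and 7.81 ± 0.13 in Smo shRNA cells (SD, n = 3). Itga3 was 1.60-fold higher (0.68, SE 0.06) and Itgb3, the partner of the alpha v chain, 1.53-fold higher (0.61, SE 0.06). Sdc4, a heparan sulphate proteoglycan that cooperates with integrins at fibronectin, was 1.38-fold higher (0.47, SE 0.04). Itga6 rose from 7.09 ± 0.10 to 8.24 ± 0.19 (SD, n = 3, log2 difference 1.15, SE 0.10), but by only 0.15 on its brighter probe sets, where the call was lost. The common beta chain Itgb1 (-0.04, SE 0.03) and Itgb8 (-0.19, SE 0.08) did not pass. With each array centred on its median, 5 receptor genes were higher and 4 lower, and without the variance trend 5 were higher and 3 lower.

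Of 13 tested genes for fibrillar collagens, fibrillin 1 and proteins that process or cross-link collagen, 9 were lower and 1 higher. That is 76.9% called, against 38.6% of all genes, of which 17.4% were lower. The median difference of the list was -0.22. Some of its lower genes are also counted among the stromal markers, and Lox had no probe set with a single gene symbol. Plod2, the lysyl hydroxylase that sets the type of collagen cross-link, was 2.63-fold lower (log2 difference -1.39, SE 0.04, limma adjusted p = 2.77e-11). Fibrillar collagen chains showed smaller differences, with -0.53 for Col5a2 (SE 0.06), -0.46 for Col1a2 (SE 0.04) and -0.29 for Col5a1 (SE 0.05). The lysyl oxidase relative Loxl4 fell by 0.27 (SE 0.05). Bmp1, the protease that matures procollagen and acts with periostin, did not pass (-0.07, SE 0.04), nor did fibrillin 1 (Fbn1, 0.07, SE 0.03). Loxl3 was the 1 higher gene, at 0.20 (SE 0.04), and is named after its value was seen.

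Of 15 tested genes for TGF-beta ligands, receptors, Smads, latent TGF-beta binding proteins and a regulator of Smads, 6 were higher and 5 lower. That is 73.3% called, against 38.6% of all genes, and the median difference was 0.02. The ligand Tgfb2 fell by 0.62 (SE 0.05), and the inhibitory Smad7, itself a target of the pathway, fell by 0.38 (SE 0.05). The receptor Tgfbr1 was higher by 0.53 (SE 0.06). Of the proteins that hold TGF-beta latent in the matrix, Ltbp1 was higher by 0.45 (SE 0.03) and Ltbp2 fell by 0.43 (SE 0.04). Tgfbr3 (0.05, SE 0.03) and Smad2 (-0.07, SE 0.04) did not pass.

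Of 19 genes for Yap, Taz, Tead, their regulators and other Yap targets, 7 were lower and 5 higher, with a median difference of -0.07. That is 63.2% called, against 38.6% of all genes. With median centring, 4 were higher and 9 lower. The higher count fell to 3 without control replicate 2, control replicate 3 or Smo shRNA replicate 3, and to 2 without Smo shRNA replicate 1 or 2. The target Crim1 fell by 0.79 (SE 0.04) and Amotl2 fell by 0.31 (SE 0.03), while Axl was higher by 0.35 (SE 0.03). Of the Tead cofactors, Vgll3 fell by 0.61 (SE 0.04), and Vgll4 showed a log2 difference of -0.58 (SE 0.07), or -0.95 with the median of probe sets. Yap1 itself (0.10, SE 0.04) and the target Ankrd1 (0.14, SE 0.08) did not pass. Ankrd1 was dim, at 7.35 in control and 7.49 in Smo shRNA cells, so its missing call does not show an unchanged gene. Of the targets named here that passed, Crim1 and Amotl2 were thus lower and Axl was higher. Whether Yap had a part in the differences of Ccn1 and Ccn2 was not tested.

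Across the 6 arrays, the genes whose centred values lay nearest to those of Postn, by Euclidean distance, were Prkg1 (distance 0.29), C3 (0.36), Colec10 (0.40) and Aldh1a7 (0.46). Their differences were -3.19, -2.88, -3.35 and -2.75. Nearest to Ccn2 were Medag, Ermp1, Setd3 and Shmt2, at distances of 0.06 to 0.07 and differences of 0.59 to 0.67. With 2 lines this likeness is mostly a likeness of the difference between them.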

How the data were processed

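Total RNA of OP9 cells was measured on 6 exon arrays, 3 per line. The authors deposited log2 values per probe set; this scale is inferred from their range, and near-equal array medians (6.56 to 6.59) point to normalized arrays. How the authors corrected background, normalized and summarised probes was not given in the sources used here. Of 1256831 rows, 20744 read 0 on every array and none of these has a gene. Symbols from the platform annotation were updated through RefSeq (GRCm38.p6), and an older symbol was joined to its current gene. The annotation gives no positions, so exons were not placed.

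Probe sets with a mean of at least 6.56 were kept (245574), and genes with 3 or more were summarised by median polish. Differences are Smo shRNA minus control shRNA, fitted over all genes, and separately over all kept probe sets, with limma 3.58.1 in R 4.3.3 (eBayes with trend, Benjamini-Hochberg, threshold 0.05, two-sided), without a replicate block. SE is the moderated standard error, and folds from intensities can understate change. The calculation was tested on simulated data. Alternatives covered the filter, summary, scaling, variance model, replicate block and each array left out; leaving older symbols unjoined was added after seeing the data.

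The members and lists were chosen with earlier results of these data known. Named genes are the members, Smo, up to 5 called and 2 uncalled genes of each list by smallest adjusted p, and the 4 genes nearest to Postn and Ccn2. The number of arrays limits the precision.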

Additional observations from a re-analysis of the deposited data

How the results depend on the processing

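The counts of 2 higher and 5 lower genes among the 10 were the same under all 17 alternatives, and 9 of the 10 genes kept their direction and side of the threshold in each. The exception was Sparc, which did not pass in any, and whose difference was 0.0039 with the mean of probe sets against -0.012; the cause was not tested. Over the alternatives, Postn ran from -3.23 to -2.97, Thbs1 from -0.72 to -0.64, Ccn2 from 0.58 to 0.67 and Tnc from 0.44 to 0.54. Higher genes numbered 5 in the receptor list with median centring and without the variance trend, 0 in the collagen list with the median of probe sets, and 2 to 4 in the Yap list without 1 array; the cause was not tested. Without 1 array, 2669 to 2913 of all genes were higher and 2075 to 2770 lower. Among the other genes named, Itga8 and Loxl3 were not followed singly over the alternatives. Of the rest, Itga6 lost its call with the stricter filter, and Bmp1, Itgb8, Smad2 and Stab2 gained one in 6 fits. Replicate numbers are shared by the lines, but deviations of same-numbered samples correlated at 0.08, 0.10 and 0.39, and control 2 correlated best with number 1, so they were not taken as pairs. With the replicate block, 3787 genes were higher and 3137 lower, against 3586 and 2932 without, and no call of the 10 genes changed. Centring shifted the median of all genes to -0.03 from 0.01. Genes near the median of all probe sets (6.56) are the least certain. For Itga6, at 7.09 in control and 8.24 in Smo shRNA cells, the stricter filter gave a difference of 0.15, against 1.15 as fitted.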
